A study of Mus musculus with 6 samples.

Results

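Cathepsins are the main proteases of the lysosome, the acidic compartment in which cells break down proteins, membranes and worn organelles. Expression of 10 cathepsin genes was followed in heart muscle cells with and without the transcription factor TFEB. The members, Ctsa, Ctsb, Ctsc, Ctsd, Ctsf, Ctsh, Ctsk, Ctsl, Ctss and Ctsz, were the entries of the deposited expression table that carried these gene names, 10 of 46450 gene symbols. All 10 had at least 1 CPM (counts scaled to the same total in every library) in every library and were among the 12437 genes tested.

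Cathepsins are made as inactive precursors, tagged with mannose 6-phosphate, carried to the lysosome by receptors for that tag, and activated there by cleavage. Their name covers enzymes of unrelated families that use an aspartate, a serine or a cysteine for catalysis, and that cut proteins internally or trim them from an end. TFEB, a member of the MiT-TFE family, binds the CLEAR element, a palindrome built around an E-box, in the promoters of many lysosomal genes. Heart muscle relies on lysosomes to clear damaged mitochondria and protein aggregates.

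The study compared adult cardiomyocytes, the contractile cells of the heart, isolated from excised hearts of TFEB-/- and wild-type (WT) C57BL/6 mice aged 3 months. There were 3 TFEB-/- and 3 WT libraries of messenger RNA, each made from 400 ng of total RNA, and values below are given in replicate order. How and in which cells TFEB was deleted, the sex of the animals, their litters and any batch are not given in the sources used here and neither is whether the libraries of a genotype are from different animals. The p-values therefore measure the spread between these samples, which may be technical. Tfeb itself was at 6, 5 and 7 CPM in TFEB-/- cells, against 17, 30 and 23 CPM in WT cells (log2 fold change −1.85, SE 0.24, limma adjusted p = 0.0267). Transcript of the gene was thus still read, and a value per gene cannot show which exons are missing. All 12 cardiomyocyte markers were tested and 0 passed. At an unadjusted p below 0.05 in limma, 2 were higher in TFEB-/- cells, beside 21.1% of all tested genes. The summed levels of these markers were 74909 to 97841 CPM in TFEB-/- cells and 62367 to 86173 CPM in WT cells.

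The deposited values are whole numbers, so a level of a few CPM is known only to within 0.5 CPM on either side, and the number of reads behind it is unknown. Transcripts of the mitochondrial genome took 22.2, 30.3 and 25.3% of the TFEB-/- libraries, against 30.7, 33.9 and 44.6% of the WT libraries, with WT 3 standing apart. The TFEB-/- mean was lower by 10.5 percentage points (exact two-sided permutation p = 0.1, the smallest that 3 against 3 libraries allow). CPM are shares of a library, so a larger mitochondrial share leaves a smaller one for nuclear genes. Of the 10 cathepsins, 6 had their lowest WT level in WT 3. The share of all genes lowest in WT 3 was not counted, and the part of the mitochondrial share in these levels was not tested. Over all tested genes the log2 fold change had a median of 0.24. Each cathepsin is therefore also given after median-ratio scaling, in which every library is divided by the median of its genes' ratios to their averages over libraries, and which brought the median of all genes to 0.00068.

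Among the cathepsins of TFEB-/- cardiomyocytes, Ctsz, a carboxypeptidase, was 2.23 times as high as in WT cells, and Ctsc, a dipeptidyl peptidase, was at 0.333 times its WT level. Ctsk, a collagen-cutting enzyme at the lower limit of the table, was called higher by a difference of 1 rounding step. In RNA of whole isolates, a different number of cells of a type and a different amount of RNA per cell cannot be told apart. The 2 most abundant members, the aspartic protease Ctsd and the cysteine protease Ctsb, did not pass the threshold, nor did Ctsa, Ctsf, Ctsh, Ctsl and Ctss. At a limma adjusted p below 0.05, 2 members were higher and 1 was lower, against 3.92% of all tested genes called higher, 0.523% called lower and 4.44% called in either direction. At an unadjusted p below 0.05 there were 5 higher and 1 lower, where 21.1% of all genes were higher, 2.3% lower and 23.3% either. The groups did not overlap in 5 members with TFEB-/- above and in 1 with TFEB-/- below, beside 21.2% and 2.28% of all genes and 23.4% in either direction. With mitochondrial transcripts left out of the library totals, these were 4 and 2 members, beside 14.2% and 16.5% of all genes. A log2 fold change above 0 was found in 8 of 10 members and in 79.8% of all genes, so a positive sign alone was the rule in these libraries. The median log2 fold change of the 10 members was 0.28, beside 0.24 for all tested genes, and 6 members lay above that median of all genes. After median-ratio scaling the members' median was 0.08, Ctsz was the 1 member called higher (3.88% of all genes) and Ctsc the 1 called lower (1.69%).

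**Figure D1:**
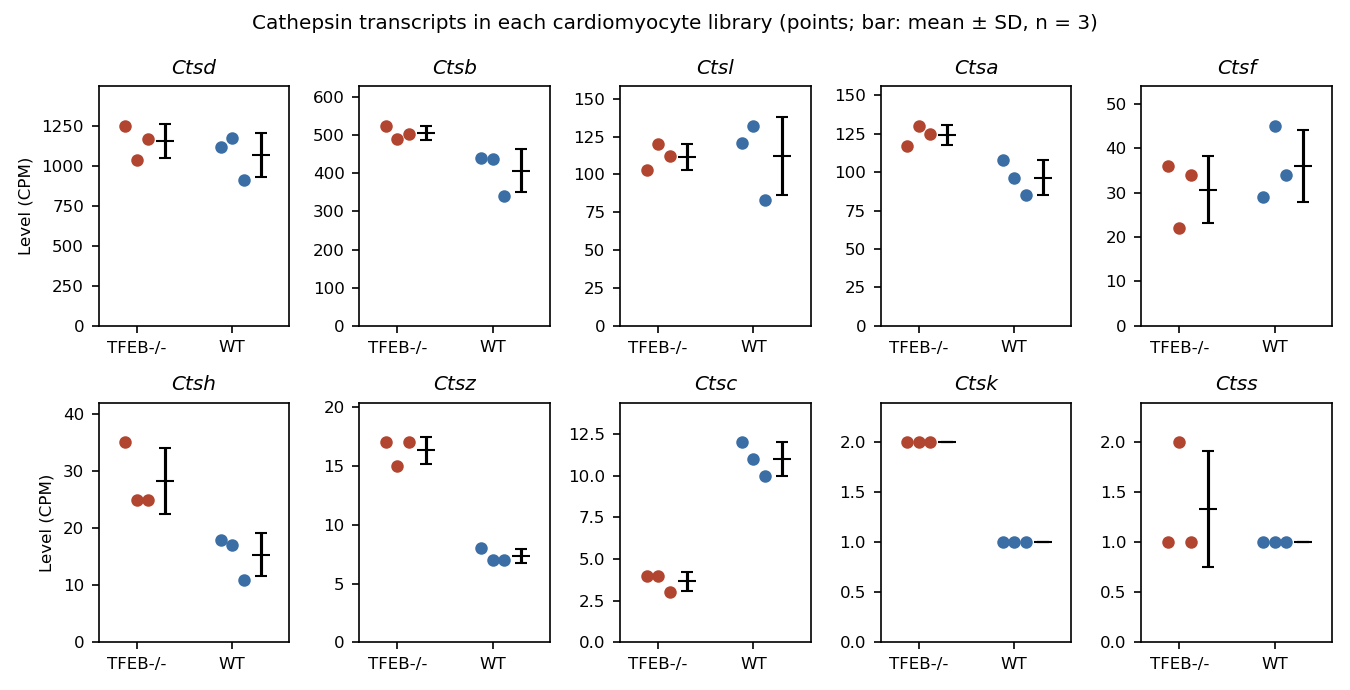
Level of each cathepsin in CPM in each library, 1 point per library, TFEB-/- on the left and WT on the right of each panel; bars are mean ± SD (n = 3). The groups are separate for Ctsz, Ctsh, Ctsk, Ctsa and Ctsb, with TFEB-/- above, and for Ctsc, with TFEB-/- below, and they overlap for the other 4 members.

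The promoters of 4 members are shown to set the members that passed the test beside those that hold the letters recognised by TFEB. RefSeq promoter windows on GRCm38.p6, from 250 bases before to 50 bases after the transcription start, were matched for 8 of the 10 members in 9 windows; Ctsb and Ctsh were not matched. The E-box CACGTG, which reads the same on both strands, was searched. Its flanked form TCACGTG contains it and was searched on both strands. On the other strand that form reads CACGTGA. Capitals mark these letters. The windows are those of Ctsz (chr2:174438990-174439289, minus strand) and Ctsc (chr7:88277835-88278134, plus strand), and then those of Ctsd (chr7:142387778-142388077, minus strand) and the downstream window of Ctsa (chr2:164833523-164833822, plus strand), all read 5′ to 3′ in the direction of the gene.
Ctsz: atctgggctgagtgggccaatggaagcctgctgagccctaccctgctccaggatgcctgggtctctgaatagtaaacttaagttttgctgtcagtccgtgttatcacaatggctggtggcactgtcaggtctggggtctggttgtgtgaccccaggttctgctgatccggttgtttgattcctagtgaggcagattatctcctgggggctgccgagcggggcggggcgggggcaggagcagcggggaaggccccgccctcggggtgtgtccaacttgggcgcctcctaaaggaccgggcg
Ctsc: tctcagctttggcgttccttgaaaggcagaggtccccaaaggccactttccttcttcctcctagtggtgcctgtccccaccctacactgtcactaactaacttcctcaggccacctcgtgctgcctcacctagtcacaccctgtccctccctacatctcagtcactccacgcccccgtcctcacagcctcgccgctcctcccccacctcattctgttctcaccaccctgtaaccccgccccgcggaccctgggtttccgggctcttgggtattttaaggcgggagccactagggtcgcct
Ctsd: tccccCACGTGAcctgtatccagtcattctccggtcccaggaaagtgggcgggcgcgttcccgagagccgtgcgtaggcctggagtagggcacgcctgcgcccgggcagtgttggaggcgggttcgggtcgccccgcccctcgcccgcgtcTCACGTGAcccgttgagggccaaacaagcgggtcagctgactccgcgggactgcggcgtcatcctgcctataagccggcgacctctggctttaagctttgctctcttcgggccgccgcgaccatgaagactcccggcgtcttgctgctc
Ctsa: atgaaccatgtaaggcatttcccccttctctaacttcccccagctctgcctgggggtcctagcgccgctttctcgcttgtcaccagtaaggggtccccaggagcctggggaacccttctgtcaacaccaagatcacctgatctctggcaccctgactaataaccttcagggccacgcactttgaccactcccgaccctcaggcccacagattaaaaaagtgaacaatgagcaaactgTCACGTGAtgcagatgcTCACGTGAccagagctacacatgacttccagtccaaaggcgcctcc
The Ctsd window held the flanked letters at 2 places, 245 and 98 bases before the start, and the Ctsa window held them 12 bases before and 5 bases after it. The unflanked E-box was found in the windows of Ctsf, 79 bases before the start, and of Ctsl, 236 bases before it. The letters were not in the windows of Ctsz, Ctsc, Ctsk or Ctss. Over all RefSeq genes with such a window, 8.09% held CACGTG and 4.29% held the flanked form, and here 4 of 8 and 2 of 8 members did. The 4 members with the letters did not pass the test, and the 3 that passed had none in these windows. Ctsk, among those that passed, was called at the limit of rounding. Of the other members that did not pass, Ctsb and Ctsh had no window and Ctss had none of the letters. As 8.09% of all genes with a window held CACGTG, most genes share its absence with the members that passed. Whether calls differ between genes with and without the letters was not tested. A match or its absence describes these 300 bases only and says nothing of binding by TFEB.

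Ctsd is the aspartic endopeptidase that carries much of the bulk protein breakdown in lysosomes, and it was the most abundant cathepsin. The gene lies on GRCm38 chromosome 7, 142375911 to 142388038, minus strand, and its promoter window is the one with flanked E-box letters at 2 places upstream of the start. It was at 1248, 1038 and 1168 CPM in TFEB-/- cells and at 1115, 1175 and 910 CPM in WT cells. The groups overlapped, with the lowest level in WT 3. With mitochondrial transcripts left out of the library totals Ctsd was at 1605, 1489 and 1564 CPM in TFEB-/- cells, against 1611, 1779 and 1645 CPM in WT cells, every TFEB-/- value then lying below every WT value. On the deposited scale the means were 1151 ± 106 CPM in TFEB-/- cells and 1067 ± 139 CPM in WT cells (SD, n = 3 each), a log2 fold change of 0.11 (SE 0.13, 95% interval −0.22 to 0.45, limma adjusted p = 0.605). The sign turned with the scaling, to −0.13 (−0.37 to 0.11) after median-ratio scaling. Both intervals leave out changes as large as those of Ctsz and Ctsc, and neither gives Ctsd a direction. Of its 31-base words, 33.2% are shared with Gm49369, an overlapping gene of the same strand. The deposited values hold no entry under that name. Whether reads were split between the 2 genes is unknown and was not tested.

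Ctsa is a serine carboxypeptidase that also protects the glycosidases Neu1 and Glb1 in a complex (chromosome 2, 164832873 to 164841032, plus strand). Its levels were 117, 130 and 125 CPM in TFEB-/- cells, against 108, 96 and 85 CPM in WT cells. All TFEB-/- values were above all WT values. The log2 fold change was 0.37 (SE 0.11, 95% interval 0.10 to 0.64, unadjusted p = 0.0181, limma adjusted p = 0.132), and 0.12 (−0.14 to 0.39) after median-ratio scaling, when it was no larger than the spread between replicates. With mitochondrial transcripts left out of the library totals, the groups overlapped. Neurl2 and Pltp overlap Ctsa on the opposite strand. Neurl2 was at 39, 29 and 37 CPM in TFEB-/- cells and 22, 24 and 21 CPM in WT cells. Pltp was at 8, 9 and 8 CPM in TFEB-/- cells and 10, 8 and 10 CPM in WT cells. Whether the authors counted by strand is not given in the sources used here, and the part of these genes in the Ctsa values was not tested.

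Ctsb and Ctsl are the broad cysteine endopeptidases of most tissues, and Ctsb can also remove dipeptides from the carboxyl end. Ctsb lies on chromosome 14, 63122462 to 63145923, plus strand. Its levels were 524, 489 and 503 CPM in TFEB-/- cells, against 441, 438 and 341 CPM in WT cells. The groups did not overlap, although WT 3 lay well below the other WT libraries. The log2 fold change was 0.32 (SE 0.12, 95% interval 0.01 to 0.63, unadjusted p = 0.0446, limma adjusted p = 0.202), and it was 0.08 (−0.14 to 0.29) after median-ratio scaling. With mitochondrial transcripts left out, Ctsb was at 674, 702 and 674 CPM in TFEB-/- cells and 637, 663 and 616 CPM in WT cells. The groups were still apart there, with a log2 fold change of 0.10 (limma adjusted p = 0.518). Fdft1, which overlaps Ctsb on the opposite strand, was at 32, 25 and 34 CPM in TFEB-/- cells and 31, 34 and 33 CPM in WT cells. Ctsl lies on chromosome 13, 64359337 to 64370890, minus strand. Its levels were 103, 120 and 112 CPM in TFEB-/- cells and 121, 132 and 83 CPM in WT cells. The WT values enclosed the TFEB-/- values. The log2 fold change of Ctsl was 0.02 (SE 0.20, 95% interval −0.49 to 0.53, limma adjusted p = 1), it was −0.22 (−0.59 to 0.14) after median-ratio scaling, and it was −0.18 without WT 3.

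Ctsf, a cysteine protease with a long propeptide that can trim the invariant chain of MHC class II in macrophages, was at moderate levels (chromosome 19, 4855130 to 4860918, plus strand). It was at 36, 22 and 34 CPM in TFEB-/- cells, against 29, 45 and 34 CPM in WT cells. The ranges overlapped in part, with the lowest value in TFEB-/- 2 and the highest in WT 2. The log2 fold change was −0.24 (SE 0.26, 95% interval −0.91 to 0.44, limma adjusted p = 0.592), and −0.48 after median-ratio scaling (limma adjusted p = 0.264). Without TFEB-/- 2 it was −0.017 and without WT 2 −0.066. The interval leaves out a fall as large as that of Ctsc, but not smaller falls or rises.

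Ctsz, also called cathepsin X, removes single amino acids from the carboxyl end of proteins and can be secreted. The gene lies on chromosome 2, 174427493 to 174439039, minus strand, and its promoter window printed above has no E-box letters. It was at 17, 15 and 17 CPM in TFEB-/- cells, against 8, 7 and 7 CPM in WT cells. The gap between the groups was several times the spread within either. The means were 16.3 ± 1.15 CPM in TFEB-/- cells and 7.33 ± 0.577 CPM in WT cells (SD, n = 3 each), a log2 fold change of 1.10 (SE 0.09, 95% interval 0.88 to 1.33, limma adjusted p = 0.0046). Rounding alone leaves the ratio of the means between 2.02 and 2.46. After median-ratio scaling the log2 fold change was 0.87 (0.61 to 1.13, limma adjusted p = 0.0116), and Ctsz passed in all 17 alternatives tried. Summed macrophage markers were also higher in TFEB-/- cells, at 44 to 52 CPM against 21 to 32 CPM in WT cells, and their part in the values of Ctsz was not tested. Nelfcd, a transcription elongation factor subunit on the opposite strand that overlaps Ctsz, was at 39, 28 and 28 CPM in TFEB-/- cells and 31, 24 and 21 CPM in WT cells (log2 fold change 0.32, limma adjusted p = 0.398).

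Ctsc, or dipeptidyl peptidase I, removes dipeptides from the amino end and activates the granule serine proteases of immune cells. The gene lies on chromosome 7, 88278085 to 88310888, plus strand, and its promoter window has no E-box letters either. It was at 4, 4 and 3 CPM in TFEB-/- cells, against 12, 11 and 10 CPM in WT cells. Every TFEB-/- value was well below every WT value, and neither group spread by more than a few rounding steps. The means were 3.67 ± 0.577 CPM in TFEB-/- cells and 11 ± 1 CPM in WT cells (SD, n = 3 each), a log2 fold change of −1.47 (SE 0.13, 95% interval −1.82 to −1.12, limma adjusted p = 0.00834). With rounding, the ratio of the means lies between 0.275 and 0.397. Only 48 of the 12437 tested genes, 0.386%, had a more negative log2 fold change. After median-ratio scaling it was −1.69 (−2.03 to −1.36, limma adjusted p = 0.00333), and Ctsc passed in all 17 alternatives. The 1 gene annotated across it on the other strand, the long noncoding RNA Gm26522, was listed at 0 in all libraries.

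**Figure D2:**
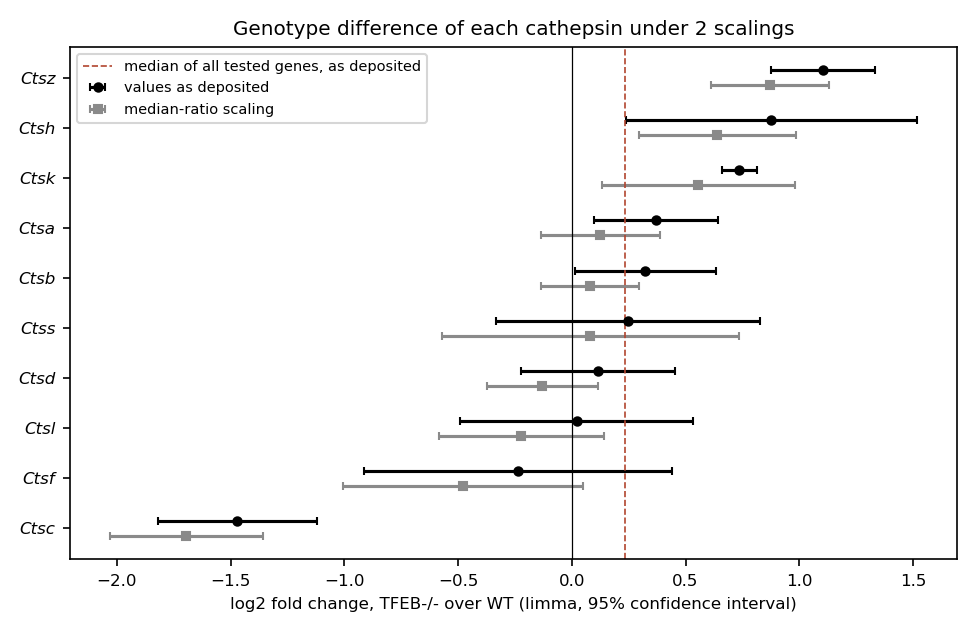
Log2 fold change of each cathepsin, TFEB-/- over WT, with its 95% confidence interval from limma, on the values as deposited (black circles) and after median-ratio scaling (grey squares); the dashed line is the median of all tested genes, 0.24, on the deposited scale. After median-ratio scaling the median of all tested genes was 0.00068. The intervals of Ctsz, Ctsc, Ctsh and Ctsk leave out 0 under both scalings, while Ctsd and Ctsl change sign. Of those, Ctsz and Ctsc passed the threshold under both scalings, Ctsk only as deposited and Ctsh under neither.

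Ctsh, an aminopeptidase with some endopeptidase activity, came closest to the threshold among the members that missed it (chromosome 9, 90054152 to 90076089, plus strand). It was at 35, 25 and 25 CPM in TFEB-/- cells, against 18, 17 and 11 CPM in WT cells. All TFEB-/- values were above all WT values, with TFEB-/- 1 and WT 3 at the far ends. The ratio of the means was 1.85 and the log2 fold change 0.88 (SE 0.25, 95% interval 0.24 to 1.52, unadjusted p = 0.0169, limma adjusted p = 0.129). After median-ratio scaling it was 0.64 (0.30 to 0.98, limma adjusted p = 0.052). Ctsh passed in 2 of 17 alternatives, with a filter of 5 CPM (adjusted p = 0.04) and with robust variance estimation (adjusted p = 0.0345).

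Ctsk and Ctss lie 17.4 kb apart on chromosome 3 and were at the lower limit of the table. Ctsk (95499256 to 95509362, plus strand), the collagen-degrading cathepsin of bone-resorbing osteoclasts, was at 2 CPM in every TFEB-/- library and at 1 CPM in every WT library. Its log2 fold change was 0.74 (SE 0.03, limma adjusted p = 0.00023), but neither group had any spread, and the ratio of 2 lies anywhere from 1 to 5 once rounding is counted. The same values were found in 35 tested genes, and 164 of the 552 genes called had no spread in either group. The call was lost after median-ratio scaling (log2 fold change 0.56, limma adjusted p = 0.129), with mitochondrial transcripts left out (adjusted p = 0.116) and with robust variance estimation (adjusted p = 0.12). Ctss (95526786 to 95556403, plus strand) processes the invariant chain in antigen-presenting cells. Its levels were 1, 2 and 1 CPM in TFEB-/- cells and 1 CPM in each WT library. Its log2 fold change of 0.25 (95% interval −0.33 to 0.83, limma adjusted p = 0.515) could not be resolved at these levels.

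Of 13 further cathepsin genes in the table, 12 were listed at 0 in all libraries, among them the leukocyte and stomach enzymes Ctsg, Ctsw and Ctse and the placental enzymes of rodents. The exception was Ctso, a cysteine cathepsin of wide expression. It was at 5, 7 and 6 CPM in TFEB-/- cells and at 7, 6 and 6 CPM in WT cells, overlapping groups with a log2 fold change of −0.08 (SE 0.14, limma adjusted p = 0.738). Ctso and the 10 members were thus the cathepsins with a value above 0 in these libraries.

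Summed over the 10 members, cathepsin transcripts were at 2087, 1847 and 1990 CPM in TFEB-/- cells, against 1854, 1923 and 1483 CPM in WT cells. The groups overlapped, and WT 3 was lowest (exact two-sided permutation p = 0.3). With mitochondrial transcripts left out of the totals the sums were 2685, 2650 and 2665 CPM in TFEB-/- cells and 2678, 2911 and 2680 CPM in WT cells, so that WT 3 no longer stood apart. Ctsd made up 59.8, 56.2 and 58.7% of the sum in TFEB-/- cells, against 60.1, 61.1 and 61.4% in WT cells. Ctsb made up 25.1, 26.5 and 25.3% in TFEB-/- cells, against 23.8, 22.8 and 23.0% in WT cells. In every TFEB-/- library the share of Ctsd was smaller, and that of Ctsb larger, than in any WT library. The members that passed the test were all minor ones, and the total was set by Ctsd and Ctsb in both genotypes.

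Levels of different cathepsins were compared per kb of the longest coding transcript, which assumes that the deposited values are not already scaled by length. On the scale of mean CPM per kb, Ctsd led with 541 ± 49.8 in TFEB-/- cells and 501 ± 65.3 in WT cells (SD, n = 3 each). Ctsb followed with 107 in TFEB-/- cells and 85.7 in WT cells, and Ctsa with 34.0 in TFEB-/- cells and 26.4 in WT cells. The steps between these leading members were larger than the spread in WT cells. In WT cells Ctsf and Ctsl were level, at 18.2 each with overlapping ranges, and were followed by Ctsh at 9.48, Ctsz at 5.09 and Ctsc at 3.42, all apart. In TFEB-/- cells Ctsl, Ctsh and Ctsf were at 18.1, 17.5 and 15.5 with overlapping ranges, and Ctsz was at 11.3, its range reaching that of Ctsf. Ctsc, at 1.14 in TFEB-/- cells, lay between Ctsk (1.32) and Ctss (0.984), closer than rounding can resolve. Ctsk and Ctss were at 0.661 and 0.738 in WT cells and, being 1 CPM each, cannot be ordered. With the median length of the annotated basic coding transcripts, an alternative chosen after seeing the data, 8 of 10 members kept their WT place and Ctsl moved above Ctsf, where its WT range overlapped that of Ctsa.

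Ratios between members within a library do not depend on its scaling. These were chosen after the values were seen and are given as a description. Ctsz per 1000 CPM of Ctsd was 13.6, 14.5 and 14.6 in TFEB-/- cells, against 7.17, 5.96 and 7.69 in WT cells. Ctsh per 1000 CPM of Ctsd was 28.0, 24.1 and 21.4 in TFEB-/- cells and 16.1, 14.5 and 12.1 in WT cells. Both ratios kept the groups apart. Ctsc per 1000 CPM of Ctsd was 3.21, 3.85 and 2.57 in TFEB-/- cells, against 10.8, 9.36 and 11.0 in WT cells, and Ctsl per 1000 CPM of Ctsd overlapped between the genotypes. The ratio of Ctsz to Ctsc was 4.25, 3.75 and 5.67 in TFEB-/- cells, against 0.667, 0.636 and 0.70 in WT cells. The ratio was above 1 in every TFEB-/- library and below 1 in every WT library. CPM are not per length, and per kb Ctsz was above Ctsc in both genotypes.

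**Figure D3:**
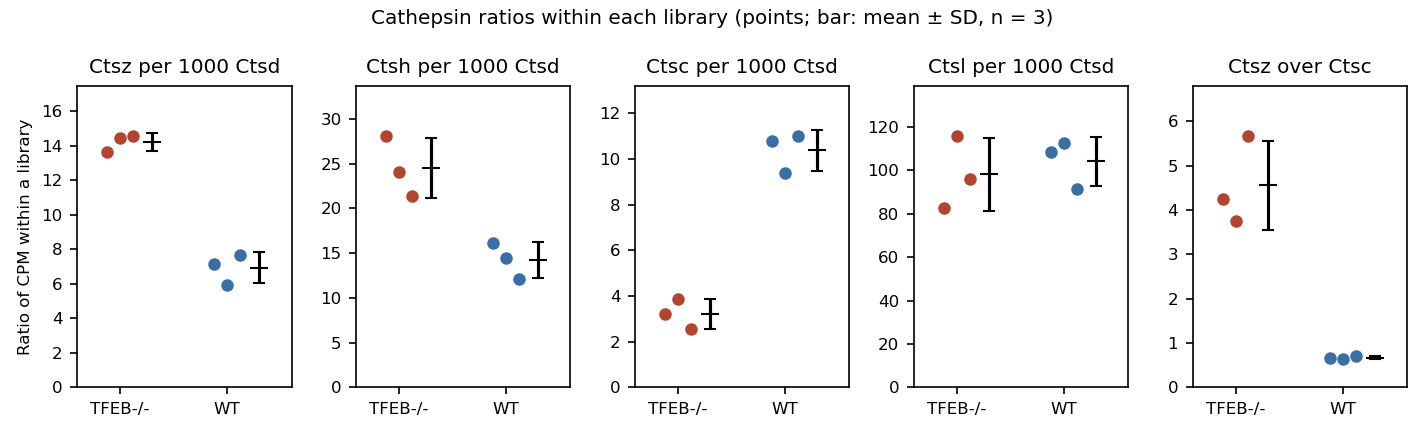
Ratios of CPM between cathepsins within each library, 1 point per library, TFEB-/- left and WT right in each panel; bars are mean ± SD (n = 3). The ratio of Ctsz to Ctsc is 3.75 or more in each TFEB-/- library and 0.70 or less in each WT library, while Ctsl per 1000 CPM of Ctsd overlaps.

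Lysosomal peptidases outside the cathepsin family showed no call on the deposited scale, on which all tested genes had a median log2 fold change of 0.24. Of 6 tested, 0 passed in limma and 5 were higher at an unadjusted p below 0.05, beside 21.1% of all genes. Their median log2 fold change was 0.41. Lgmn, the asparagine endopeptidase that activates several cathepsins, was at 97, 73 and 81 CPM in TFEB-/- cells, against 65, 61 and 60 CPM in WT cells (log2 fold change 0.42, limma adjusted p = 0.129). Tpp1, a tripeptidyl peptidase, was at 54, 38 and 47 CPM in TFEB-/- cells and 38, 34 and 30 CPM in WT cells, where the groups touched (log2 fold change 0.43, limma adjusted p = 0.206). After median-ratio scaling the log2 fold changes were 0.18 for Lgmn and 0.19 for Tpp1. With that scaling Dpp7, a dipeptidyl peptidase at 4, 2 and 3 CPM in TFEB-/- cells and 1 CPM in each WT library, was called higher (limma adjusted p = 0.0464).

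Inhibitors of cathepsins were measured less widely, with 7 of 19 listed genes tested and 12 at 0 in all libraries. Of these 7, 1 was higher and 0 lower, beside 3.92% and 0.523% of all tested genes. At an unadjusted p below 0.05 in limma, 3 were higher, beside 21.1% of all genes. The median log2 fold change of the 7 was −0.01. Serpinb6a, an intracellular serpin, was at 82, 84 and 85 CPM in TFEB-/- cells, against 53, 59 and 49 CPM in WT cells, without overlap (log2 fold change 0.64, SE 0.08, limma adjusted p = 0.0238). Which cathepsins Serpinb6a acts on was not tested, so its call need not concern an inhibitor of the members measured here. Serpinb6a passed in 8 of 17 alternatives. It missed the threshold after median-ratio scaling (limma adjusted p = 0.0997) and without WT 1 or any TFEB-/- library (adjusted p up to 0.128). Cst3, cystatin C, the main secreted inhibitor of cysteine cathepsins, was at 346, 331 and 348 CPM in TFEB-/- cells and 318, 400 and 318 CPM in WT cells, which overlapped.

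In the machinery that tags and carries lysosomal enzymes, 1 of 15 genes was higher, 0 were lower, and 6 were higher at an unadjusted p below 0.05. Of all tested genes 3.92% were called higher and 21.1% were higher at an unadjusted p, and the list's median log2 fold change was 0.31, beside 0.24. Nagpa, which uncovers the mannose 6-phosphate tag, was at 17, 15 and 14 CPM in TFEB-/- cells, against 8, 9 and 7 CPM in WT cells (log2 fold change 0.90, SE 0.12, limma adjusted p = 0.0297). The groups were apart, but the call was lost whenever a library was left out (adjusted p = 0.0578 to 0.107). Sortilin, Sort1, an alternative carrier, was at 60, 48 and 43 CPM in TFEB-/- cells and 33, 23 and 18 CPM in WT cells, and was called after median-ratio scaling (limma adjusted p = 0.0314) but not as deposited (0.105). The tag receptors M6pr and Igf2r did not pass.

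Partners and substrates of cathepsins gave 0 calls among 6 genes in limma, with 2 higher at an unadjusted p below 0.05, beside 21.1% of all genes. Their median log2 fold change was 0.31, beside 0.24 for all tested genes. Their summed levels without mitochondrial transcripts were 1577 to 1738 CPM in TFEB-/- cells, below the 1992 to 2158 CPM in WT cells. Psap, the precursor that cathepsins cut into saposins, was at 1218, 991 and 1179 CPM in TFEB-/- cells, against 1283, 1274 and 1101 CPM in WT cells (log2 fold change −0.11, limma adjusted p = 0.55). The log2 fold change of Psap was −0.36 after median-ratio scaling (limma adjusted p = 0.103), −0.34 with mitochondrial transcripts left out (0.0853), and −0.18 to −0.022 with a library left out. Grn, progranulin, was at 74, 55 and 62 CPM in TFEB-/- cells and 55, 53 and 52 CPM in WT cells, where the groups touched (log2 fold change 0.24, limma adjusted p = 0.272). Among 9 secreted collagen and elastin proteases and their inhibitors tested, 0 passed in limma, beside 4.44% of all genes. At an unadjusted p below 0.05, 1, an inhibitor, was higher, beside 21.1% of all genes. The list had a median log2 fold change of 0.50, beside 0.24 for all tested genes. Its most abundant genes were Timp3 (log2 fold change 0.50, limma adjusted p = 0.269) and Adamts1 (0.89, limma adjusted p = 0.369). Both rest on few libraries: Adamts1 was at 0.50 without TFEB-/- 1 and 1.37 without TFEB-/- 2, and Timp3 at 0.31 without WT 1 and 0.32 without TFEB-/- 3. Among other MiT-TFE factors, Mitf was at 20, 19 and 20 CPM in TFEB-/- cells and 28, 21 and 24 CPM in WT cells. Tfe3 was at 18, 10 and 12 CPM in TFEB-/- cells and 12, 9 and 10 CPM in WT cells, and Tfec was at 0 in all. Neither Mitf nor Tfe3 passed.

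Several cathepsins are abundant in macrophages, so markers of other heart cells were read beside them. Of 14 macrophage markers 11 were tested and 2, Ptprc and Aif1, were at 0 in all libraries. In limma 1 was called higher, Tyrobp, at 1 CPM in each TFEB-/- library and 0 in each WT library. At an unadjusted p below 0.05, 3 were higher. Of all tested genes 3.92% were called higher and 21.1% were higher at an unadjusted p. The macrophage markers had a median log2 fold change of 0.61, beside 0.24 for all tested genes. Their summed level was 44 to 52 CPM in TFEB-/- cells, against 21 to 32 CPM in WT cells, ranges that did not overlap (exact two-sided permutation p = 0.1). The largest contributor, the lysozyme Lyz2, was at 14, 20 and 16 CPM in TFEB-/- cells and 6, 7 and 9 CPM in WT cells (limma adjusted p = 0.0544). With mitochondrial transcripts left out the sums were 58.9 to 74.6 CPM in TFEB-/- cells and 30.3 to 57.8 CPM in WT cells. The sums were higher in TFEB-/- cells, as were the called members Ctsz and Ctsk and unlike Ctsc, and their part in the cathepsin values was not tested.

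Markers of the other cell types of the heart were summed in the same way. The smooth muscle and pericyte markers summed to 307 to 393 CPM in TFEB-/- cells, against 233 to 277 CPM in WT cells. Of these 8 markers 1, Cspg4, was called higher (limma adjusted p = 0.0374), beside 3.92% of all tested genes. The list's median log2 fold change was −0.03, and Acta2 made up the gap, at 161, 233 and 185 CPM in TFEB-/- cells and 66, 118 and 70 CPM in WT cells. These sums overlapped with mitochondrial transcripts left out, at 394.9 to 563.9 CPM in TFEB-/- cells and 368.3 to 421.1 CPM in WT cells. Markers of fibroblasts, which can make Ctsk, summed to 129 to 178 CPM in TFEB-/- cells and 115 to 139 CPM in WT cells. Beside 3.92% of all genes, 1 of these 10 was called higher, Pdgfra, at 3 CPM in each TFEB-/- and 2 CPM in each WT library. That call has no spread in either group and was lost after median-ratio scaling (limma adjusted p = 0.355). Endothelial markers summed to 370 to 429 CPM in TFEB-/- cells and 380 to 507 CPM in WT cells. In limma 0 of 12 were called, and 1 was lower at an unadjusted p below 0.05, beside 2.3% of all genes. The endothelial sums without mitochondrial transcripts were 486.2 to 574.5 CPM in TFEB-/- cells, all below the 575.2 to 748.2 CPM in WT cells. Of 8 blood and lymphoid markers, 5 were at 0 in all libraries, and the sums were 4 to 8 CPM in TFEB-/- cells and 3 to 31 CPM in WT cells. The part of these cells in the cathepsin values was not tested.

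**Figure D4:**
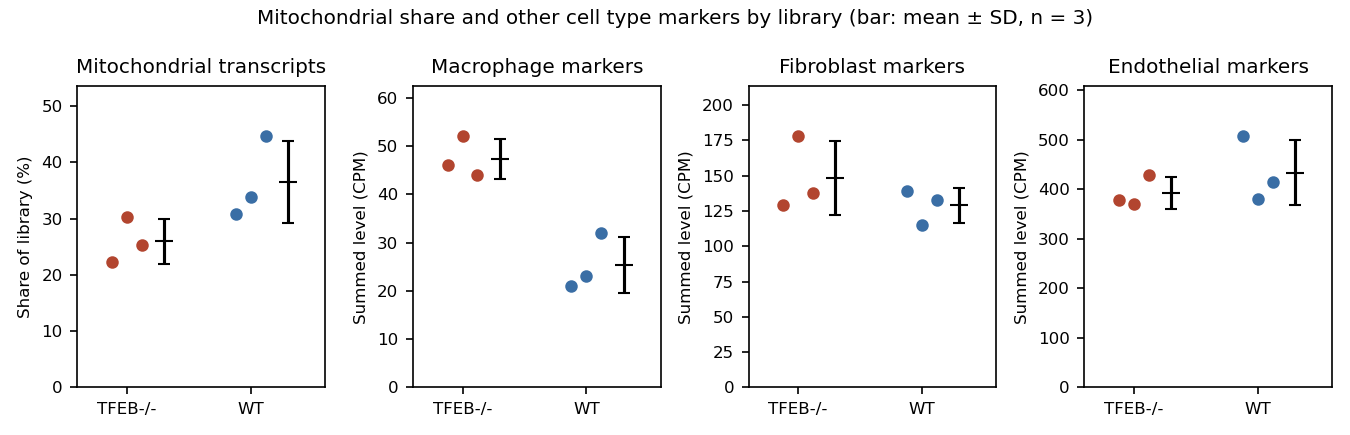
Share of transcripts of the mitochondrial genome in percent, and summed CPM of macrophage, fibroblast and endothelial markers, 1 point per library, TFEB-/- left and WT right; bars are mean ± SD (n = 3). Macrophage sums are 44 to 52 CPM in TFEB-/- and 21 to 32 CPM in WT libraries, and WT 3 has the highest mitochondrial share, 44.6%.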

How the data were processed

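The authors deposited 1 table of whole-number values per gene and library. Each library sums to 999505 to 999655, so the deposited values are a score, read here, from the table's name, as kallisto CPM that the authors scaled to a common total and rounded. Among the tools in the submitters' processing notes are kallisto, Salmon, RSEM, STAR and HISAT2, with no versions or roles, and the build is GRCm38. Libraries were stranded, per the labels' protocols. Depth per library is unknown, since the read numbers in the labels cannot be reconciled with 6 libraries, so no counting interval is given. Rounding leaves 0.5 CPM on either side, which weighs most on genes of a few CPM.

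Entries sharing a symbol were summed and date-like names restored through Ensembl IDs. Testing covered 12437 genes that reached 1 CPM in 3 or more libraries, compared with limma 3.58.1 (R 4.3.3, statmod 1.5.0) on log2(CPM + 0.5), with a mean-variance trend, genotype as the only term and Benjamini-Hochberg adjustment over all of them, with a threshold of 0.05. The fit has 4 residual degrees of freedom and 4.88 (median over genes) with those that limma borrows from the variances of all genes. Low genes have their fold changes understated on this scale. The procedure was first run on simulated data in which only genes averaging 5 CPM or more were changed. That simulation held no difference in mitochondrial share. It therefore cannot show how the procedure behaves for changes in genes of a few CPM or under such a difference. Positions, lengths and shared 31-base words are from GENCODE M21. Median-ratio scaling used genes averaging 5 CPM or more.

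Members and gene lists were chosen with earlier results of these data known. Named by rule are the members, Tfeb, up to 3 called genes per direction in each list, or else its 2 most abundant. Cst3, Dpp7, Sort1, Lyz2, Acta2, M6pr, Igf2r, Mitf, Tfe3 and the overlapping genes were named after their values were seen. The alternatives were other pseudocounts, filters, scalings, variance settings, a replicate block and leaving out each library.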

Additional observations from a re-analysis of the deposited data

How the results depend on the processing

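Ctsz and Ctsc passed in every one of 17 alternatives (adjusted p 0.00256 to 0.047 and 0.00138 to 0.0496). The members called higher numbered 1, not 2, with median-ratio scaling, with mitochondrial transcripts left out, and with the replicate block and median-ratio scaling together, where Ctsk was lost, and 2 in the other alternatives. With a filter of 5 CPM or robust variance estimation Ctsh was called in place of Ctsk, which was not tested at 5 CPM. Members called lower numbered 1 throughout. Over all genes, 487 higher became 780 with robust estimation, 159 with the replicate block, 257 with the block and median-ratio scaling, and 154 to 406 with a library left out (154 without TFEB-/- 3, 196 without TFEB-/- 1, 246 without WT 3 and 255 without WT 2). The 65 lower became 210 with median-ratio scaling, 172 with quantile normalization, 188 without mitochondrial transcripts, 26 with the block, 127 with the block and median-ratio scaling, and 38 (without WT 1) to 87 with a library left out. The log2 fold change of Ctsd turned to −0.13, −0.037, −0.11 and −0.13 with median-ratio scaling, quantile normalization, mitochondrial transcripts left out, and the block with median-ratio scaling, and that of Ctsl to −0.22, −0.23, −0.20 and −0.22. With a library left out, Ctsl ran from −0.18 to 0.15 and Ctso from −0.19 to 0.034, and Grn was −0.019 with quantile normalization. The cause was not tested. Tfeb passed in 11 of 17 and, with a library left out, only without WT 1 (adjusted p 0.0261 to 0.116).

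Whether libraries with the same replicate number were paired is not given in the sources used here. Their deviations from the group means correlated at 0.144, −0.049 and 0.088. Those of libraries with different numbers correlated at −0.184 to 0.104. With 3 libraries per group these values cannot show whether there was a pairing. Under the replicate block, members gave 2 higher and 1 lower. Rounding limits Ctsk, Ctss and other genes of a few CPM, and 3 against 3 libraries cannot reach an exact permutation p below 0.1.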
